A study of Rattus norvegicus with 8 samples.

Results

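Cell division runs on a small set of proteins that are made, used, and destroyed in order. For this account, 37 rat genes that encode them were chosen by name, with earlier results of these data known. They comprise D cyclins and their kinases, cyclin-dependent kinase (CDK) inhibitors, genes of entry into DNA synthesis, DNA replication genes, mitotic cyclins and entry kinases, and mitosis and checkpoint genes. Of the 37 genes listed, 35 were found by symbol among the 32883 genes of the deposited tables, whereas *E2f1* and *Ccnb2* were not analysed here. *Rrm2*, with 30 reads over all rats, and *Bub1b*, with 41 reads, had too few reads for the test, which left 33 genes among 13937 tested.

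The mRNA was sequenced from the right Achilles tendon of 8 wild-type (WT) male Sprague-Dawley rats aged 8 to 10 weeks, with 1 library per rat. The runners, 4 rats, were killed 12 hours after running for 1 hour on a treadmill at 20 m/min up a 10° incline (12 h p.r.), and the other 4 rats were naïve controls (NC). The authors describe the controls as rats at rest. For their single-run treadmill experiment, they state that caged controls were killed together with the 12 h p.r. group. Their RNA sequencing methods give no time of killing for the controls. Whole tendon was used, so fewer cells of a type and less RNA per cell cannot be told apart.

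In the cell cycle, D cyclins with *Cdk4* and *Cdk6* act on the retinoblastoma proteins and free E2F factors, which switch on genes for cyclin E and DNA replication. Cyclins A and B with *Cdk1* then drive mitosis, while *Wee1* holds *Cdk1* in check by phosphorylation, and CDK inhibitors keep resting cells out of the cycle. The cells of a grown tendon are mostly resting tenocytes, and the genes of S phase and mitosis are widely used to mark the few cells that divide.

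Between 7350509 and 10648648 reads per 12 h p.r. rat and between 8385779 and 12951397 per NC rat were counted on genes, a depth that limits what can be seen for genes with few reads. The tissue carried the markers of tendon in every rat. *Tnmd*, a tenocyte membrane protein, was at 167 to 293 FPKM (fragments scaled by gene length and by a size factor of each rat). *Scx*, a tendon transcription factor, was at 17.9 to 53.2 FPKM. The tendon markers were not level between the groups, since 3 of 10, *Scx* (log2 fold change 0.62), *Mkx* (0.78), and *Thbs4* (0.56), were higher at 12 h p.r. at an unadjusted p value under 0.05, with edgeR adjusted p values of 0.452, 0.452, and 0.506. *Scx* was at 39.7 to 53.2 FPKM in the runners and at 17.9 to 38.5 FPKM in the NC rats, without overlap, and the part of these markers in the differences given here was not tested. Some rats stood apart in other tissue markers. The 9 fast skeletal muscle markers summed to 62169 CPM (read counts scaled to a library of 1000000 reads) in 12 h p.r. replicate 3 and to between 1341 and 11060 CPM in the other 7 rats. The 10 cartilage and bone markers reached 2180 CPM in NC replicate 3 and 1270 CPM in 12 h p.r. replicate 1, with 227 to 543 CPM in the rest. Slow skeletal muscle markers, 6 in all, summed to 5.44, 1495, 150, and 243 CPM in 12 h p.r. replicates 1 to 4. In NC replicates 1 to 4 they summed to 862, 2547, 1268, and 2089 CPM, and the groups overlapped only through 12 h p.r. replicate 2. The part of slow muscle in the differences given here was not tested.

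In these tendons, the genes that hold or admit cells at the start of the cycle were far higher than those of mitosis, with a median level of 33.5 FPKM for the D cyclins and their kinases and 0.771 FPKM for the mitosis and checkpoint genes. On the FPKM scale, which corrects for gene length, *Cdk4* had the highest mean over the 8 rats, 77.1, followed by the replication clamp *Pcna* at 72.2, *Ccnd1* at 48.8, the inhibitor *Cdkn1b* at 43.3, *Ccnd3* at 33.5, and *Ccnd2* at 31.5. At least 10 FPKM was reached by 12 genes, between 1 and 10 FPKM by 14 genes, and 9 were below 1 FPKM. Those 9 included *Mki67*, the standard marker of cycling cells, at 0.554 FPKM, *Top2a*, the topoisomerase that untangles replicated DNA, at 0.623 FPKM, and *Aurkb*, a kinase of chromosome segregation, at 0.321 FPKM. *Bub1b*, a spindle checkpoint gene, was the lowest at 0.127 FPKM, so the range over the 35 genes spanned from 0.127 to 77.1 FPKM.

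**Figure D1:**
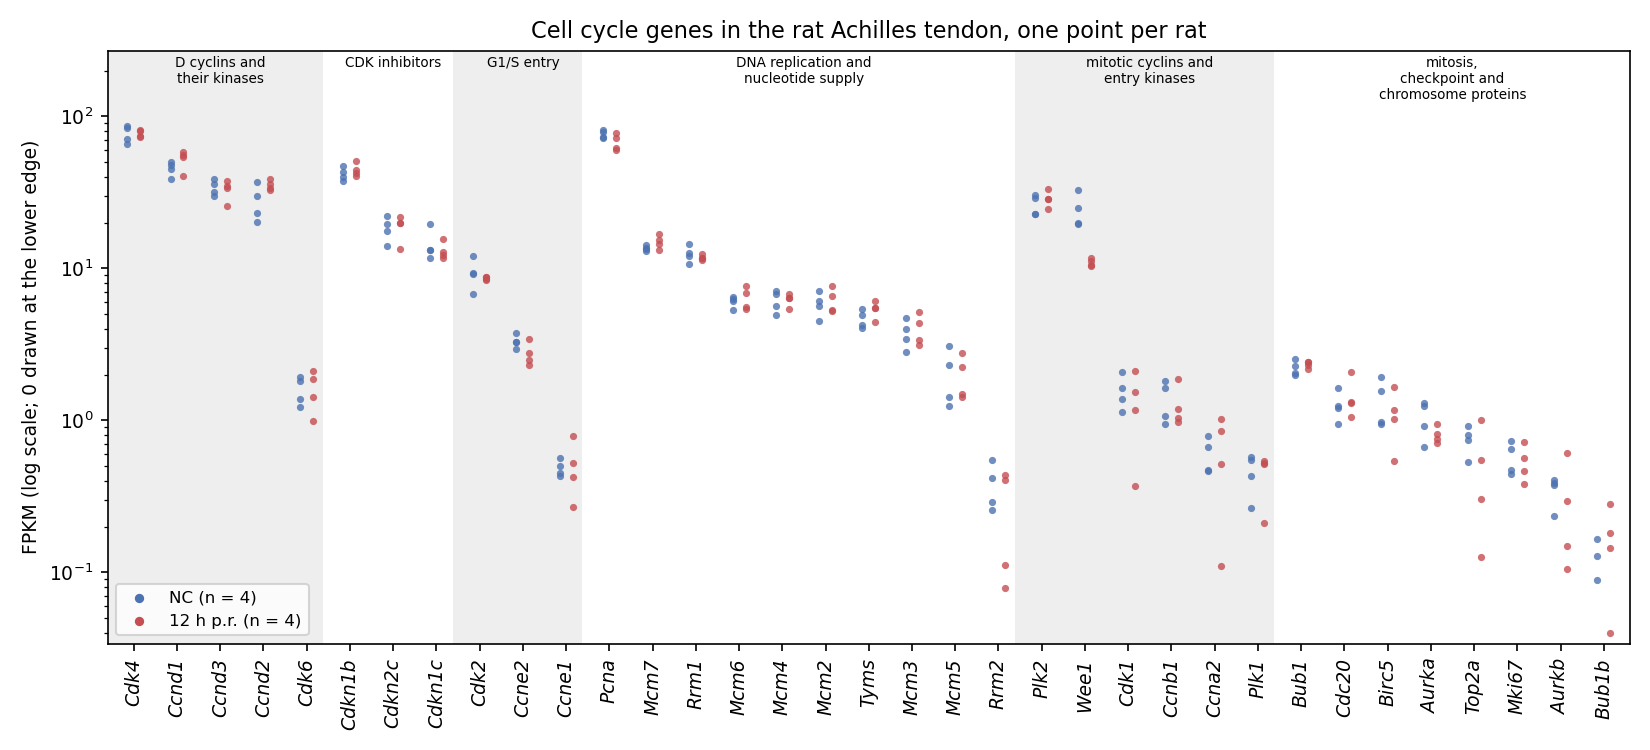
FPKM of each of the 35 genes in each rat on a log axis, grouped by role, with NC rats in blue and 12 h p.r. rats in red. *Cdk4* (mean 77.1 FPKM) and *Pcna* (72.2 FPKM) stand at the top, 5 of the 8 mitosis genes have means under 1 FPKM, and *Wee1* is the gene whose red and blue points separate.

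To compare the groups, counts scaled by TMM (the trimmed mean of M values, a correction for library composition) went into edgeR's quasi-likelihood test, and p values were adjusted by the Benjamini-Hochberg method across the 13937 genes. Of the 33 genes tested, 0 reached an edgeR adjusted p value under 0.05, where 0.00718% of all genes did. At an unadjusted p value under 0.05, 0 of the 33 were higher at 12 h p.r. (5.44% of all genes) and 1, *Wee1*, was lower (4.08% of all genes). Among the 33 genes, the Wald test of DESeq2 called *Wee1* alone, at an adjusted p value under 0.05 that 0.685% of all genes reached. In *Wee1* the CPM of both groups did not overlap, as was the case for 6.06% of all genes, and in the other 32 genes they overlapped.

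As for direction, 18 of the 33 genes had a log2 fold change above 0 and 15 below 0, with a median of 0.00, beside a median of 0.02 over all genes tested. The median size of the log2 fold change was 0.10 among these genes and 0.15 over all genes. For 27 of the 33 genes (81.8%) the 95% interval of the log2 fold change lay within −1 and 1, so that a change of at least 2-fold lay outside it. That share was 79.4% over all genes. The other 6 were *Wee1*, and 5 genes of mitosis with few reads, *Ccna2*, *Cdk1*, *Top2a*, *Aurkb*, and *Birc5*.

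**Figure D2:**
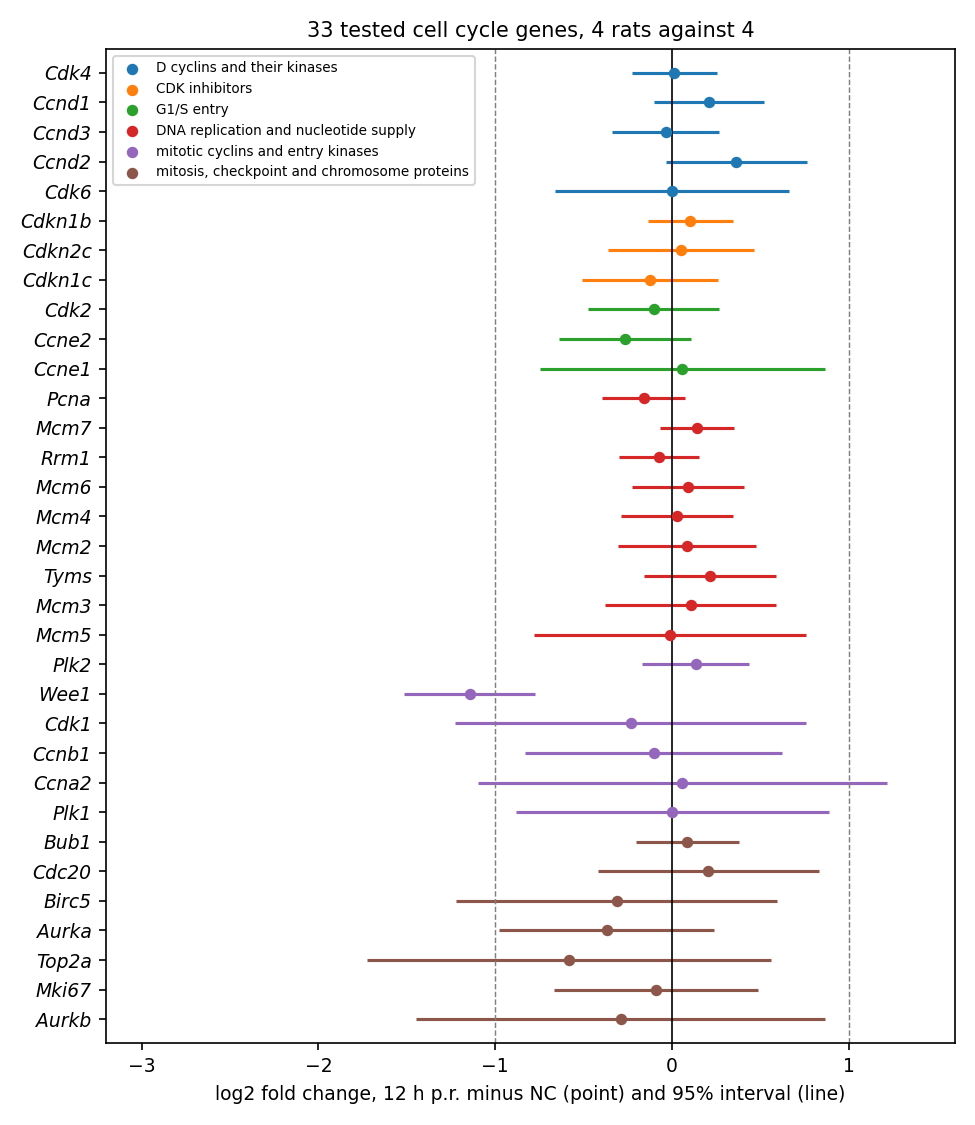
Log2 fold change of each of the 33 genes tested (12 h p.r. minus NC, 4 rats against 4) with its 95% interval, colored by role group. The interval of *Wee1* (−1.51 to −0.78) lies below 0, all others cross 0, and the widest belong to *Ccna2*, *Top2a*, and *Aurkb*.

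*Wee1* (ENSRNOG00000010017), the kinase that delays entry into mitosis, was lower in every 12 h p.r. rat than in any NC rat. It was measured at 37.1, 34.3, 34.5, and 38.4 CPM in 12 h p.r. replicates 1 to 4 and at 82.2, 65.4, 64.3, and 107 CPM in NC replicates 1 to 4. The runners lay close together and the NC rats spread more widely, with NC replicate 4 the highest of all. Its mean was 36.1 ± 2.02 CPM (SD, n = 4) in the runners against 79.7 ± 19.99 CPM (SD, n = 4) in the controls, which gave a ratio of 0.452. The log2 fold change was −1.14 (standard error, SE, 0.16, with a 95% interval of −1.51 to −0.78), with an edgeR adjusted p value of 0.142 that missed the threshold of 0.05 although its unadjusted p value ranked 6 of 13937 genes. The exact permutation test over the 70 splits of the rats gave a 2-sided p of 0.0286, which is as low as it can go with 4 rats in each group. With DESeq2 the adjusted p value was 2.7e-06, and it lay between 2.7e-06 and 0.508 over all settings tried, while the log2 fold change stayed between −1.25 and −0.97. The value nearest 0 was found without NC replicate 4. On the FPKM scale, the means of *Wee1* were 10.9 ± 0.599 (SD, n = 4) at 12 h p.r. and 24.3 ± 6.11 (SD, n = 4) in the NC group.

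*Wee1* is also known as an output gene of the circadian clock, the feedback loop in which *Arntl* and *Clock* switch on *Per* and *Cry* genes that then repress them. Among 18 core clock genes, 17 were tested, of which 2 were higher and 3 lower at an unadjusted p value under 0.05 (29.4% together, beside 9.51% of all genes), while the edgeR adjusted p value was above 0.05 for all 17. This list was chosen with earlier results of these data known, so its share is a description and not a test. *Per2* was measured at 59.3, 58.6, 39.9, and 43.7 CPM at 12 h p.r. and at 75.7, 98.6, 78.3, and 117 CPM in the NC rats, with a log2 fold change of −0.88 (SE 0.18, edgeR adjusted p = 0.385, DESeq2 adjusted p = 0.0056). Each runner was below each NC rat, a separation of the groups that 6.06% of all genes showed in either direction, and the highest NC rat was replicate 4, as for *Wee1*. *Cry1* was measured at 6.47, 7.64, 7.97, and 4.13 CPM at 12 h p.r. and at 9.14, 10.9, 13.5, and 13.5 CPM in the NC rats, again without overlap (log2 fold change −0.85, SE 0.23, edgeR adjusted p = 0.432). In the opposite direction, the activator *Arntl* was measured at 13.1, 13.8, 10.7, and 12.5 CPM at 12 h p.r. and at 9.94, 6.62, 5.74, and 7.99 CPM in the NC rats, without overlap (log2 fold change 0.72, SE 0.19, edgeR adjusted p = 0.422). *Per1*, with a log2 fold change of −0.70 (edgeR adjusted p = 0.432), had 1 runner, replicate 1, at 83.2 CPM inside the NC range of 80.6 to 109 CPM. The fifth clock gene past the unadjusted threshold was *Nr1d1*, a repressor of *Arntl*, with a log2 fold change of 0.51 (edgeR adjusted p = 0.489). Their part in the difference of *Wee1* was not tested.

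**Figure D3:**
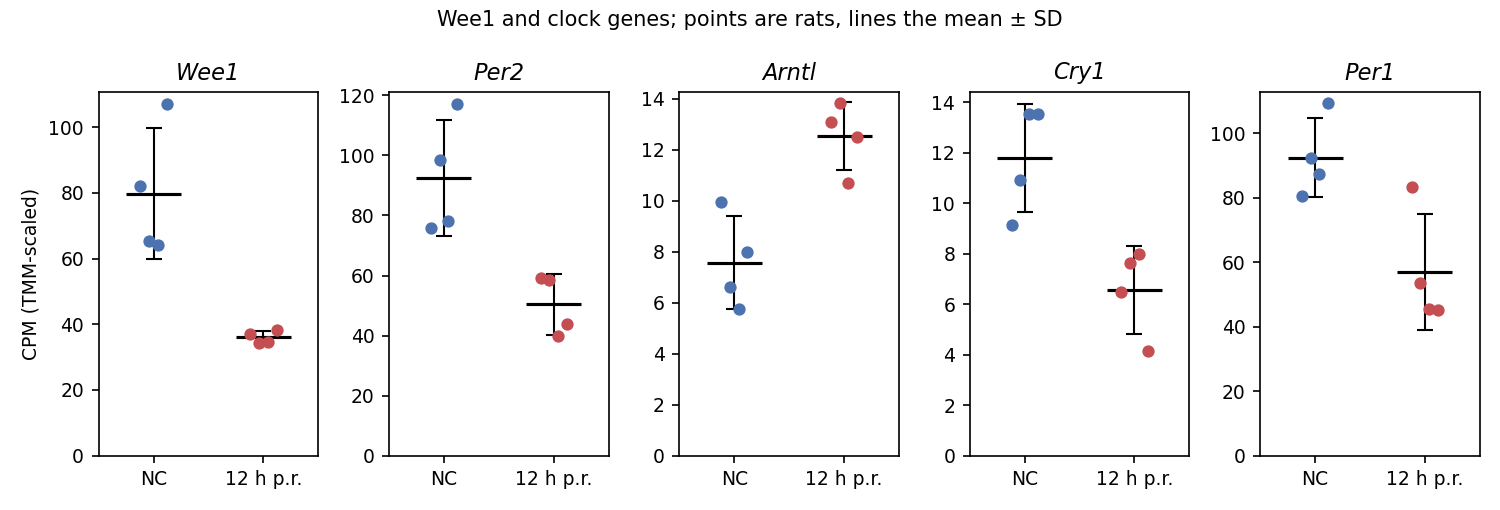
CPM of *Wee1* and of the 4 clock genes with the smallest p values in each rat, with the mean (long line) and SD (short lines) of 4 rats per group, each panel on its own axis from 0. *Wee1*, *Per2*, and *Cry1* are lower and *Arntl* is higher in every 12 h p.r. rat than in any NC rat, whereas *Per1* overlaps in 1 runner.

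The D cyclins and their kinases, which start the cycle in response to growth signals, were the most abundant of the 6 groups, with a median of 33.5 FPKM. None of the 5 passed the test. *Cdk4* was measured at 75.5, 68.5, 67.4, and 72.9 CPM at 12 h p.r. and at 77.0, 60.5, 79.4, and 64.7 CPM in the NC rats. All 4 runners lay inside the NC range, and the log2 fold change was 0.01 (95% interval −0.23 to 0.25, edgeR adjusted p = 0.98). *Ccnd2* had the largest log2 fold change of the group, 0.36 (SE 0.18, 95% interval −0.03 to 0.76, edgeR adjusted p = 0.553). Its values were 48.5, 51.4, 55.2, and 46.7 CPM at 12 h p.r. and 32.7, 28.7, 52.4, and 42.7 CPM in the NC rats, so that 3 NC rats were below all runners and NC replicate 3 was among them. NC replicate 3 was also the rat with the highest cartilage and bone markers, and without it the unadjusted p value of *Ccnd2* was under 0.05, while its adjusted p value stayed above 0.05. *Ccnd1* had a log2 fold change of 0.21, *Ccnd3* of −0.04, and *Cdk6*, the less abundant partner of the D cyclins with a mean of 1.59 FPKM, of 0.00. The gene model of *Cdk4* overlaps that of *Tspan31* (mean 65.9 FPKM) in the GRCr8 assembly, and whether the counting separated their reads by strand is not stated in the sources used here.

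All 3 CDK inhibitors were above 10 FPKM, and none passed the test. *Cdkn1b*, which encodes p27 and holds cyclin E and *Cdk2* in resting cells, was measured at 75.1, 90.4, 71.9, and 78.9 CPM at 12 h p.r. and at 65.7, 75.5, 70.1, and 82.9 CPM in the NC rats. The groups overlapped, with a log2 fold change of 0.10 (95% interval −0.14 to 0.34, edgeR adjusted p = 0.785). *Cdkn1c*, an imprinted gene that encodes p57, was measured at 24.2, 26.3, 25.1, and 31.8 CPM at 12 h p.r. and at 26.9, 40.0, 23.9, and 26.8 CPM in the NC rats. NC replicate 2 alone stood at 40.0 CPM, and the log2 fold change of *Cdkn1c* was −0.12 (95% interval −0.51 to 0.26, edgeR adjusted p = 0.846) with it and 0.06 without it. *Cdkn2c*, an inhibitor of *Cdk4* and *Cdk6*, had a mean of 18.5 FPKM and a log2 fold change of 0.05.

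The genes of entry into S phase were lower in level than those of the D cyclins, and none of the 3 tested passed the test. *Cdk2*, the kinase that starts DNA synthesis with cyclin E, was measured at 18.8, 19.4, 19.3, and 18.9 CPM at 12 h p.r. and at 14.8, 26.7, 20.2, and 20.4 CPM in the NC rats. The runners spanned less than 1 CPM in this gene and lay inside the NC range, with a log2 fold change of −0.10 (95% interval −0.47 to 0.27, edgeR adjusted p = 0.874). *Ccne2*, a cyclin E, was measured at 10.5, 8.43, 7.02, and 7.60 CPM at 12 h p.r. and at 11.5, 9.93, 8.91, and 9.94 CPM in the NC rats. Only 12 h p.r. replicate 1 was inside the NC range, the other 3 runners being below it, and the log2 fold change was −0.26 (SE 0.16, edgeR adjusted p = 0.648). The other cyclin E gene, *Ccne1*, had 77 reads in all and a mean of 0.494 FPKM, below the 3.03 FPKM of *Ccne2*, and its log2 fold change was 0.06 with a 95% interval of −0.75 to 0.86.

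The 10 genes of DNA replication and nucleotide supply had a median of 6.10 FPKM, and none of the 9 tested passed the test. *Pcna*, the clamp that keeps DNA polymerase on its template and that also serves DNA repair, was measured at 71.1, 90.8, 71.9, and 84.4 CPM at 12 h p.r. and at 92.2, 83.3, 85.8, and 94.1 CPM in the NC rats. Although 2 runners were below all NC rats, the groups overlapped, with a log2 fold change of −0.16 (95% interval −0.39 to 0.07, edgeR adjusted p = 0.664). *Tyms*, the thymidylate synthase that supplies the DNA base thymine, had the largest log2 fold change of the group, 0.21 (95% interval −0.16 to 0.59, edgeR adjusted p = 0.711). It was measured at 8.54, 6.85, 9.40, and 8.45 CPM at 12 h p.r. and at 6.25, 6.4999, 7.63, and 8.24 CPM in the NC rats, and 3 runners were above all NC rats.

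The MCM2-7 helicase, which unwinds DNA at replication origins, is built from the products of *Mcm2* to *Mcm7*, and its genes were unequal in level. *Mcm7* had a mean of 14.3 FPKM, *Mcm6* of 6.23, *Mcm4* of 6.18, *Mcm2* of 6.03, *Mcm3* of 3.88, and *Mcm5* of 2.00. Their log2 fold changes lay between −0.01 for *Mcm5* and 0.14 for *Mcm7*, with the narrowest 95% interval for *Mcm7*, −0.06 to 0.35. NC replicate 2 was the lowest of the 8 rats for *Mcm2*, *Mcm3*, *Mcm5*, and *Mcm6*, as well as for *Rrm1*. *Rrm1* and *Rrm2* encode the large and the small subunit of ribonucleotide reductase, which makes the building blocks of DNA. *Rrm1* had a mean of 12.1 FPKM and a log2 fold change of −0.07 (95% interval −0.30 to 0.16), whereas *Rrm2*, the subunit made in S phase, had a mean of 0.317 FPKM and between 0.0939 and 0.641 CPM in the 8 rats.

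In the group of mitotic cyclins and entry kinases, 1 of the 6 measured genes, *Wee1*, was past the unadjusted threshold. *Plk2*, a kinase that responds to growth factors and stress and that is the most abundant of the group, was measured at 69.2, 80.5, 92.6, and 80.0 CPM at 12 h p.r. and at 63.7, 81.7, 63.6, and 84.97 CPM in the NC rats. The groups overlapped, with a log2 fold change of 0.13 (95% interval −0.17 to 0.43, edgeR adjusted p = 0.778). Its relative *Plk1*, the kinase of mitosis, had a mean of 0.451 FPKM, against 27.6 FPKM for *Plk2*, and a log2 fold change of 0.00 (95% interval −0.88 to 0.89).

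*Cdk1*, *Ccnb1*, and *Ccna2* encode the kinase and the cyclins that carry cells through G2 and into mitosis, and they had 168, 176, and 117 reads over all 8 rats. *Cdk1* was measured at 2.20, 0.527, 1.67, and 3.004 CPM at 12 h p.r. and at 1.603, 2.33, 2.95, and 1.95 CPM in the NC rats. *Ccna2* was measured at 2.46, 0.263, 2.02, and 1.22 CPM at 12 h p.r. and at 1.12, 1.10, 1.59, and 1.87 CPM in the NC rats. In both genes 12 h p.r. replicate 2 was the lowest rat, with 4 reads for *Cdk1* and 2 reads for *Ccna2*. For *Ccna2* the highest and the lowest of the 8 rats were runners that differed 9.27-fold in FPKM. That fold rests on 19 reads in 12 h p.r. replicate 1 and 2 reads in 12 h p.r. replicate 2. The log2 fold changes were −0.23 for *Cdk1* (95% interval −1.23 to 0.76), −0.10 for *Ccnb1* (−0.83 to 0.62), and 0.06 for *Ccna2* (−1.10 to 1.22). The intervals of *Cdk1* and *Ccna2* thus include a 2-fold decrease, and that of *Ccna2* a 2-fold increase as well.

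Promoters of 3 genes are shown because S phase and mitotic genes are known to share short sites, bound by NF-Y (the CCAAT box), by E2F factors, and by the DREAM and MuvB complexes (the cell cycle homology region, CHR). *Wee1* had no entry. In the mitotic role groups, the most abundant genes with an entry were *Plk2* (mean 27.6 FPKM), *Bub1* (2.28 FPKM), and *Cdk1* (1.43 FPKM). The promoters given here belong to these 3 genes. Each is the 250 bases before the gene's start in RefSeq on the GRCr8 assembly, chr2:43702286-43702535 (+ strand), chr3:135504922-135505171 (− strand), and chr20:19265043-19265292 (+ strand), written 5′ to 3′ with matches to the sites in capitals:
Plk2: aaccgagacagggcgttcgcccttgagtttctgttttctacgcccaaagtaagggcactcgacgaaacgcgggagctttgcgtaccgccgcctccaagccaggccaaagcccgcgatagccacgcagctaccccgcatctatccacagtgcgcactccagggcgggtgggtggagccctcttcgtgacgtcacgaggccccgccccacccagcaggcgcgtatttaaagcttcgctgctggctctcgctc
Bub1: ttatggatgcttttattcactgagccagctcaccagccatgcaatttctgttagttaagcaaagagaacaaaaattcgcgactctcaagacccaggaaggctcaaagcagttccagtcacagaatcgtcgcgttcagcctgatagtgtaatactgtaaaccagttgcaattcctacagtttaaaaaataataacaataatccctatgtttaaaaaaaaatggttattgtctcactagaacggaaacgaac
Cdk1: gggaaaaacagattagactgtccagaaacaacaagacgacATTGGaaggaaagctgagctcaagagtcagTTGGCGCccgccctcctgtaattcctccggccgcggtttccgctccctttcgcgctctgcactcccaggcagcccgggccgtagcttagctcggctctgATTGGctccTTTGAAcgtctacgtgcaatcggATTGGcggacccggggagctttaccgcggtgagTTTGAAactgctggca
The *Cdk1* promoter held 3 CCAAT boxes, 2 CHR elements, and 1 E2F core, while *Plk2* and *Bub1* held none of them. Both strands were searched, for CCAAT as the box of NF-Y, for TTTGAA and its close spelling TTCGAA as the CHR, for TTGGCGC and its close spelling TTCCCGC as the E2F core, and for CACGTG as the E-box of clock and MYC factors. On the opposite strand, the box of NF-Y can overlap the first E2F spelling.

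Of the 37 genes, 26 had a promoter entry, 25 of them in the expression table. The CCAAT box was in 16 of these 25 promoters (64.0%) and in 34.0% of all 33469 promoters of this length, the CHR in 9 (36.0%) and in 17.4% of all, and the E2F core in 8 (32.0%) and in 5.0% of all. *Mki67* and *Top2a* each held 4 CCAAT boxes and 2 CHR elements, and *Mcm5*, *Mcm6*, and *Mcm7* each held 2 E2F cores. The E-box was in 2 (8.0%) and in 5.59% of all, with 3 in *Cdk4* and 1 in *Mcm2*. These are matches of letters, and no binding was measured.

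The 8 genes of mitosis, checkpoint, and chromosome proteins had the lowest median, 0.771 FPKM, and none of the 7 tested passed the test. *Bub1*, a kinase of the spindle checkpoint, was the most abundant and the steadiest, measured at 11.001, 10.5, 9.88, and 10.9 CPM at 12 h p.r. and at 8.98, 11.4, 10.3, and 9.18 CPM in the NC rats. Its FPKM differed 1.27-fold between the highest and the lowest rat, the narrowest range of the 35 genes, and its log2 fold change was 0.09 (95% interval −0.21 to 0.38, edgeR adjusted p = 0.863). *Top2a* was measured at 5.69, 1.71, 0.714, and 3.10 CPM at 12 h p.r. and at 2.97, 4.17, 5.14, and 4.50 CPM in the NC rats. The highest and the 2 lowest rats for *Top2a* were all runners, and its FPKM differed 7.90-fold between rats. That fold rests on 44 reads in 12 h p.r. replicate 1 and 6 reads in 12 h p.r. replicate 3. The log2 fold change of *Top2a* was −0.58 (SE 0.51, 95% interval −1.73 to 0.56, edgeR adjusted p = 0.747), and without 12 h p.r. replicate 1, the highest rat, it was −1.16 (edgeR adjusted p = 0.577).

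Log2 fold changes of the remaining genes of this group lay between −0.37 for *Aurka*, the kinase of spindle poles, and 0.21 for *Cdc20*, the activator of the anaphase-promoting complex. Between them were −0.31 for *Birc5* (survivin), −0.29 for *Aurkb*, and −0.09 for *Mki67*, whose values were 3.82 to 7.25 CPM at 12 h p.r. and 4.41 to 7.22 CPM in the NC rats. *Bub1b* had no read in 12 h p.r. replicate 2 and 1.16 CPM in 12 h p.r. replicate 1, the highest of its values.

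Single rats differed widely within a group in these low genes. Of the 8 mitosis genes, 4 were highest in 12 h p.r. replicate 1 (*Mki67*, *Top2a*, *Aurkb*, and *Bub1b*), and *Ccna2* and *Ccne1* were highest in that rat too. In turn, *Cdk1*, *Ccna2*, *Ccne1*, *Mki67*, and *Bub1b* were lowest in 12 h p.r. replicate 2. Over all 35 genes, NC replicate 2 was the lowest rat for 10, 12 h p.r. replicate 2 for 8, and NC replicate 1 for 6. The mean log2(CPM + 0.5) of the 8 mitosis genes was 1.85 in 12 h p.r. replicate 1, 1.87 in NC replicate 4, and 1.72 in NC replicate 3, and 1.24 to 1.54 in the other 5 rats.

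**Figure D4:**
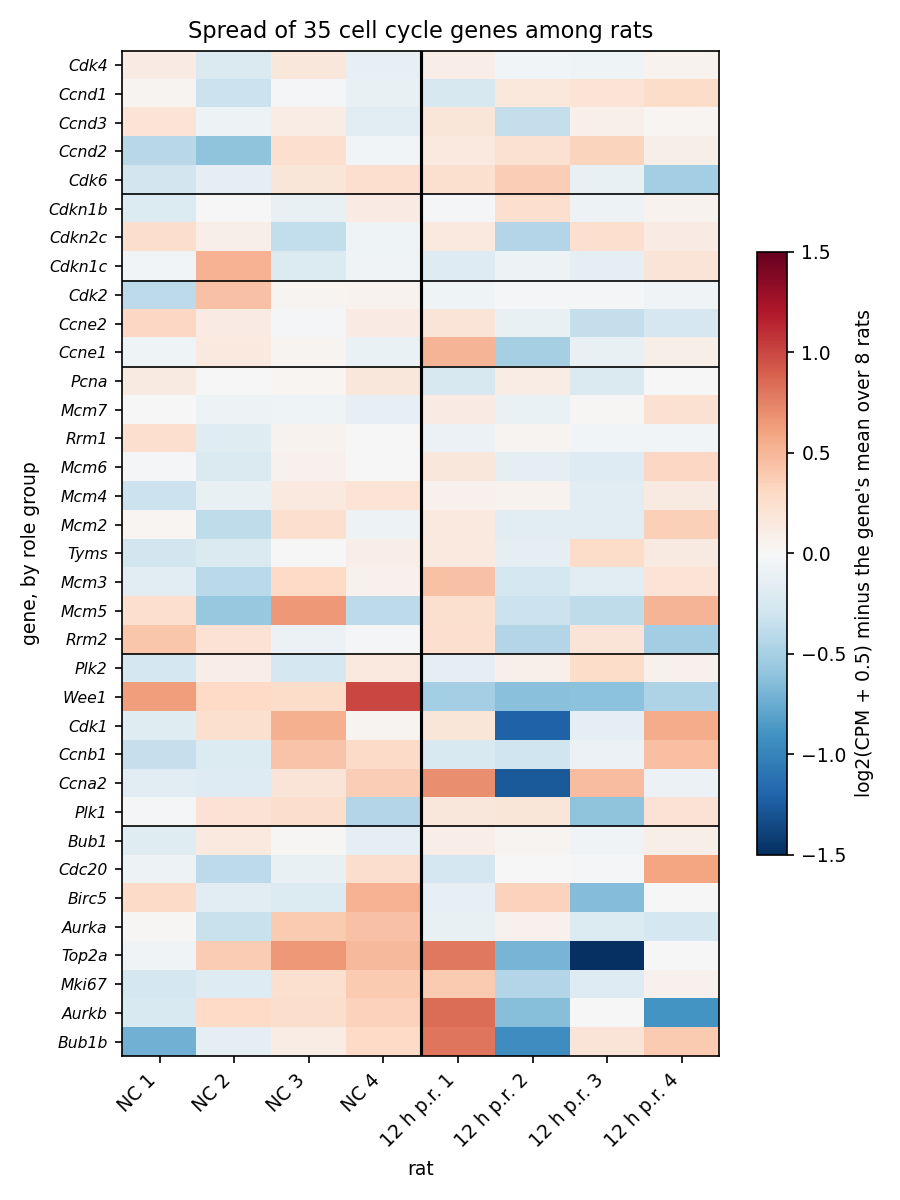
Heat map of log2(CPM + 0.5) of the 35 genes in each rat, minus the mean of the gene over the 8 rats, ordered by role group with NC rats on the left. The row of *Wee1* changes color between the groups, whereas *Top2a*, *Cdk1*, *Ccna2*, *Aurkb*, and *Bub1b* differ mostly among the 12 h p.r. rats.

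Markers of other tissues also moved among these rats. In log2(CPM + 0.5), the 10 cartilage and bone markers had a mean of 5.06 in 12 h p.r. replicate 1 and 6.09 in NC replicate 3, with 1.73 to 2.66 in the others, and *Col2a1* ranged from 0.392 to 130 FPKM. Leukocyte and macrophage markers, 9 in all, were highest in NC replicate 1 at 6.12 and lowest in 12 h p.r. replicate 3 at 4.42. The 11 markers of the erythroid and myeloid list ran from 0.957 to 1.15 at 12 h p.r. and from 0.874 to 1.51 in the NC rats. Summed CPM ran from 227 to 1270 at 12 h p.r. and 396 to 2180 in the NC rats for cartilage and bone. The sums were 564 to 2587 and 799 to 3788 for leukocytes, and 204 to 812 and 250 to 1092 for the erythroid and myeloid list. Most of the last sum was the hemoglobin gene *Hbb*, at 797 of 812 CPM in 12 h p.r. replicate 2 and 1064 of 1092 CPM in NC replicate 1. No marker of these lists was at 0 in all rats, but *Elane* and *Prtn3* of the erythroid and myeloid list had only 4 and 1 reads over all rats. Without both rats with the highest cartilage and bone markers, *Wee1* had a log2 fold change of −1.25, and *Ccnd1* and *Ccnd2* as higher and *Ccne2* as lower were past the unadjusted threshold with it. Their part in the differences among the genes of division was not tested.

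Beyond these genes, the wider cell cycle machinery was followed in 6 lists, which include that of the 18 core clock genes. Of 145 genes listed, 128 were tested. At an unadjusted p value under 0.05, 3 were higher and 5 lower (5.44% and 4.08% of all genes). Together these were 6.25% of the genes tested in the lists, beside 9.51% of all genes. The core clock list held 2 of the higher and 3 of the lower genes. At an adjusted p value under 0.05 there were 0 with edgeR and 1, the clock gene *Per2*, with DESeq2. Outside the clock list, 3 genes were past the unadjusted threshold. *Cdc25b*, the phosphatase that undoes the action of *Wee1* on *Cdk1*, was measured at 19.3, 26.0, 22.8, and 23.4 CPM at 12 h p.r. and at 17.5, 15.6, 17.2, and 21.8 CPM in the NC rats (log2 fold change 0.34, SE 0.14, edgeR adjusted p = 0.492). The groups overlapped in *Cdc25b* through 12 h p.r. replicate 1 and NC replicate 4. *E2f5*, a repressor E2F of resting cells, had a log2 fold change of −0.49 (SE 0.19, edgeR adjusted p = 0.477) and *Mycn*, a growth-promoting transcription factor, of −0.79 (SE 0.35, edgeR adjusted p = 0.518), both with overlap between the groups. *E2f4*, another repressor E2F, was the 1 gene of its list of 17 whose groups did not overlap (6.06% of all genes), at 30.4, 30.8, 31.3, and 30.7 CPM at 12 h p.r. and at 35.4, 34.2, 32.6, and 34.1 CPM in the NC rats. Its log2 fold change was −0.15 (SE 0.07, edgeR adjusted p = 0.565), and it was named after its values were seen.

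Of the 31 tested genes of origin licensing and firing, 0 were past the unadjusted threshold, with a median log2 fold change of −0.07. Of the 34 tested genes of the mitotic spindle and cytokinesis, 0 were past it, with a median of 0.08. The genes with the smallest p values in these lists were *Cdc45*, a part of the replicative helicase, with a log2 fold change of 0.36 (edgeR adjusted p = 0.571) and *Cenpf*, a kinetochore gene, with 0.77 (edgeR adjusted p = 0.625). The FPKM of *Cldn5*, an endothelial neighbor of *Cdc45* with a log2 fold change of 0.37, was 4.30 to 4.42 times that of *Cdc45* in every rat. Whether reads of *Cldn5* were counted on *Cdc45* was not tested. Among 17 tested CDK regulators 1 was past the unadjusted threshold, *Cdc25b*, and among 17 pocket protein, E2F, and proliferation factors 2, *E2f5* and *Mycn*. None of the 12 genes of the p53 response and growth arrest was past it, the smallest p value being that of *Mdm2*, the ligase that degrades p53, with a log2 fold change of −0.25 (edgeR adjusted p = 0.531). All these counts were 0 at an edgeR adjusted p value under 0.05.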

How the data were processed

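Reads of stranded polyadenylate mRNA libraries, 1 per rat, were aligned by the authors with HISAT2 2.1.0 (genome Rnor_6.0) and assigned to Ensembl genes by featureCounts 1.6.3. The deposited read counts are not normalized. The FPKM values deposited by the authors correct the counts for gene length and for a size factor of each rat. The strand setting of the counting and the handling of reads that match several genes were not given in the sources used here, so 6 genes that overlap another gene (*Cdk4*, *Ccne2*, *Cdk2*, *Rrm2*, *Plk1*, and *Aurka*) may share reads with it. The authors' table of their own comparison (log2 fold change, p value, adjusted p value) was not used, and its FPKM columns repeat the FPKM table.

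Low genes were removed with filterByExpr, and 13937 genes were tested with glmQLFit and glmQLFTest of edgeR 4.0.16 after TMM scaling. CPM are counts scaled to 1000000 reads of this library size. Standard errors and 95% intervals come from the same fit. Single genes were also tested over all 70 splits of log2(CPM + 0.5). Alternatives used DESeq2 1.42.0 and limma 3.58.1 in R 4.3.3. The scripts were tested on simulated data. P values rest on separate rats. Motifs were searched in RefSeq promoters of GRCr8.

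The genes and lists were chosen with earlier results of these data known. Per-rat values are given for genes with an unadjusted p value under 0.05 and, in each role group, for the gene with the highest mean FPKM and the gene with the largest log2 fold change, and also for *Cdk1* and *Ccna2*, chosen after their values were seen. In the other lists, up to 4 genes past the unadjusted threshold, or the gene with the smallest p value, are named, and *Nr1d1* was added after its values were seen.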

Additional observations from a re-analysis of the deposited data

Results flagged for a closer look

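Each of 70 groups of 4 rats, 35 genes in both groups, was searched for a rat far from the other 3 by Dixon's 95% critical value, which chance passes in about 3.5 groups, and 2 were found. *Plk1* in 12 h p.r. replicate 3 was −0.035 on the log2(CPM + 0.5) scale, against 0.74 in the nearest and 0.78 in the farthest of the other runners. This is the rat with the highest fast skeletal muscle markers, 12.5 in mean log2(CPM + 0.5), whereas its slow skeletal muscle markers, at 4.15, were below those of 6 of the other 7 rats, and the part of muscle in the low value was not tested. *Aurkb* in NC replicate 1 was 0.62, against 1.11 in the nearest and 1.19 in the farthest of the other NC rats. *Plk1* had 81 and *Aurkb* 112 reads over all 8 rats, so both values rest on few reads.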

How the results depend on the processing

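At an adjusted p value under 0.05, edgeR called 1 of all genes, DESeq2 96, and limma 0, at pseudocounts of 1 and 0.1 FPKM alike. It was also 0 with the replicate block, with the fast skeletal muscle or the cartilage and bone covariate, without any 1 rat (range 0 to 0), or without both rats with the highest cartilage and bone markers, a setting chosen after seeing the data. Of the 33 cell cycle genes, DESeq2 called 1, *Wee1*, with a log2 fold change of −1.15. The number higher at an unadjusted p value under 0.05, 0 in all rats, was 1 with the replicate block and with the cartilage and bone covariate (*Ccnd2* in both), 2 without both cartilage-rich rats, and 0 to 1 without 1 rat. It was *Ccnd1* without 12 h p.r. replicate 1 and *Ccnd2* without NC replicate 3. The number lower, 1 in all rats, was 2 without both cartilage-rich rats and 1 to 3 without 1 rat, the 3 being *Ccne2*, *Top2a*, and *Wee1* without 12 h p.r. replicate 1. The cause was not tested. *Wee1* was past the unadjusted threshold under each of the 19 alternatives. With 1 rat left out, the log2 fold change ran from −0.052 to 0.075 for *Cdk4*, below 0 without 12 h p.r. replicate 1 (−0.017), NC replicate 2 (−0.052), or NC replicate 4 (−0.026), from −0.218 to 0.056 for *Cdkn1c*, and from −0.231 to 0.047 for *Cdk2*, both above 0 without NC replicate 2. The median of the 33 genes stayed between −0.07 and 0.07. Equal replicate numbers mark different rats, and deviations of same-numbered rats correlated at 0.07, −0.20, 0.13, and 0.09, so no pairing was assumed. With the block, *Wee1* had a log2 fold change of −1.12 (edgeR adjusted p = 0.469). The 95% intervals of *Ccna2*, *Aurkb*, and *Top2a* reach past a 2-fold decrease, and these genes had biological coefficients of variation between rats of 0.42, 0.43, and 0.48, while *Ccne1* and *Plk1*, with fewer reads, had 0.24 and 0.28 and narrower intervals.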

Other observations

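*Cdc45*, a member of the origin licensing and firing list, had unusually high FPKM for a replication gene, 18.9 to 34.3 in the 8 rats. Its neighbor *Cldn5*, an endothelial tight junction gene, had 82.4 to 150 FPKM, and the ratio of *Cldn5* to *Cdc45* was between 4.30 and 4.42 in all 8 rats. The gene models lie 2191 bases apart in GRCr8, another assembly than that of the counts, and whether reads of *Cldn5* were counted on *Cdc45* was not tested. The pair was chosen after its values were seen.

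*Ccng1*, a p53 target among the CDK regulators that was also chosen after its values were seen, stood at 842 CPM in 12 h p.r. replicate 3 and at 164 to 309 CPM in the other 7 rats. That rat had the highest fast skeletal muscle markers, and the part of muscle in this value was not tested.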
